A study of Mus musculus with 6 samples.

Results

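The EGR, NR4A and AP-1 immediate early genes are described here as 10 genes, namely Egr1, Egr2, Egr3, Nr4a1, Nr4a2, Nr4a3, Fos, Fosb, Jun and Junb. They were chosen by name, and all 10 had exactly 1 probe set linked to them alone among the 19938 genes of the arrays. Mouse cells of 3 stages, with 2 samples of each, were hybridized to Affymetrix arrays. The HSC samples were bone marrow cells transduced with NUP98-HOXB4, a fusion protein that lets progenitors expand in culture, and grown with IL6 and SCF. The ProT samples were cells with the same transgene grown with IL7 and DLL4, a ligand of the Notch1 receptor. The DP samples were double positive thymocytes, which carry CD4 and CD8, and they arose from such ProT cells after injection into a Rag2-/- mouse. All 3 populations thus carried the transgene. A Rag2-/- host forms no mature T or B cells of its own but keeps other blood cells and thymic stroma. The labels name no sorting step, and separate cultures or animals behind the replicates are not stated, so a p-value here reflects only how far these arrays scatter, possibly for technical reasons.

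Immediate early genes are transcribed within minutes of a signal, without new protein synthesis. Kinases of the Ras and Erk pathway act through the serum response factor and its Elk partners at CArG boxes, calcium acts through NFAT and MEF2 factors, and CREB binds cAMP response elements. EGR proteins are zinc finger factors that act in thymocytes downstream of the pre-T cell receptor and the T cell receptor. NR4A proteins are orphan nuclear receptors, and Nr4a1 (Nur77) is widely used to report T cell receptor signals. Fos and Jun proteins pair to form AP-1. The messengers of many of these genes are short-lived and also respond to the handling of cells.

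RefSeq promoter sequences (GRCm38.p6) were held for 8 of the 10 genes and were searched over the 250 bases before each transcript start held. Not every start was held. Nr4a1 (from chr15:101253902) and Egr2 (from chr10:67534469) begin upstream of all their windows, and Nr4a3 and Fosb begin inside theirs. They are shown for Nr4a1, which was called at both steps, for Nr4a2 and Fos, which passed at no step, and for Jun, which was highest in ProT. Each is written 5′ to 3′ along the gene, and capitals mark every match to TGACG (the core of the cAMP response element), GCGGGGGCG (an EGR site), TATAAA or a CArG box, on either strand.
Nr4a1, chr15:101266596-101266845, plus strand: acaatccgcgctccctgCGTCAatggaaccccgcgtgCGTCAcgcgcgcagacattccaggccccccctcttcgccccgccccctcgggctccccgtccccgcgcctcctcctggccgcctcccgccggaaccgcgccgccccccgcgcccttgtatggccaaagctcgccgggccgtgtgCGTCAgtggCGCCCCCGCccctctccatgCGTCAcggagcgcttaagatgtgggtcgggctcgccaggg
Nr4a2, chr2:57124004-57124253, minus strand: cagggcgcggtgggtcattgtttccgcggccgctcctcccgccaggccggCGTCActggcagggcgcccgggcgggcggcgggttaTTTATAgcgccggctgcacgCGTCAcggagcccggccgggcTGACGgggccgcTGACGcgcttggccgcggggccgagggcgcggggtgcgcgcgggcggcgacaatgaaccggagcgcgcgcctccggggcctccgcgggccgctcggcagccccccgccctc
Fos, chr12:85473640-85473889, plus strand: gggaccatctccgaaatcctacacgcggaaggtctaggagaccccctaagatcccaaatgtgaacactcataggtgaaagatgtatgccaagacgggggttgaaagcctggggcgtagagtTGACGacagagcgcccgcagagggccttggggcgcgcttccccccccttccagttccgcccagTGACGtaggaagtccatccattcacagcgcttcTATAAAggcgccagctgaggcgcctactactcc
Jun, chr4:95052223-95052472, minus strand: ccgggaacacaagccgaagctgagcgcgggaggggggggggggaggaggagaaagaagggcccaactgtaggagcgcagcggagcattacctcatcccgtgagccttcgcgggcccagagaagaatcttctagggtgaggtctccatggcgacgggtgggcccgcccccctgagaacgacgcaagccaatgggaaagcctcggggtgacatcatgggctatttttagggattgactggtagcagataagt
Egr2, CArG box of 1 start, chr10:67537484-67537513, plus strand: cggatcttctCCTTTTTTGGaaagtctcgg
Egr2, CArG box of another start, chr10:67537787-67537816, plus strand: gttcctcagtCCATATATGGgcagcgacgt
Nr4a3, bases -220 to -191, chr4:48045085-48045114, plus strand: cccatgtCGTCAcatTGACGtctcgcattc

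Nr4a1, Nr4a2 and Nr4a3 each held 4 matches to TGACG, against at least 4 in 0.137% of the 32817 mouse promoter windows of this length, and 17.7% of these held at least 1. Fos held 2 and Junb and Fosb 1 each, the Jun window held 0, and Egr2 held 2 before 3 of its starts and 0 before the other 2. The EGR site GCGGGGGCG was found in Nr4a1 and Fosb, against 2.57% of all windows. The CArG box was found in Egr2, before 4 of its 5 starts held, against 1.47% of all windows. Some of these Egr2 windows overlap and share the box CCATATATGG, and another holds CCTTTTTTGG, so the 4 are not independent. Bases further upstream and starts not held were not searched, so a gene without a match here, such as Fos for the CArG box, may still have one there. TATAAA was found in Fos and Nr4a2, against 12.4%. The full cAMP response element TGACGTCA (which contains TGACG), the AP-1 site TGACTCA, the other EGR site GCGTGGGCG and the NR4A site AAAGGTCA were searched too and were found in 0 of the windows of these genes. No link between these matches and the signals, given next, was tested. A match is only a run of letters, and the motifs were chosen with the values known.

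Signals are log2 values, so a difference of 1 is a doubling. Levels of different genes are not set against each other, because probe sets differ in brightness. The median of all gene values was 7.17, and where a group mean is below it the fold is written as a lower bound (at least), because such a dim signal may be background. Groups were compared in limma over all 19938 genes, with a call at a Benjamini-Hochberg adjusted p below 0.05, and changes are log2 fold changes ± standard error. In bulk RNA, fewer cells of a type and less RNA per cell cannot be told apart.

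**Figure D1:**
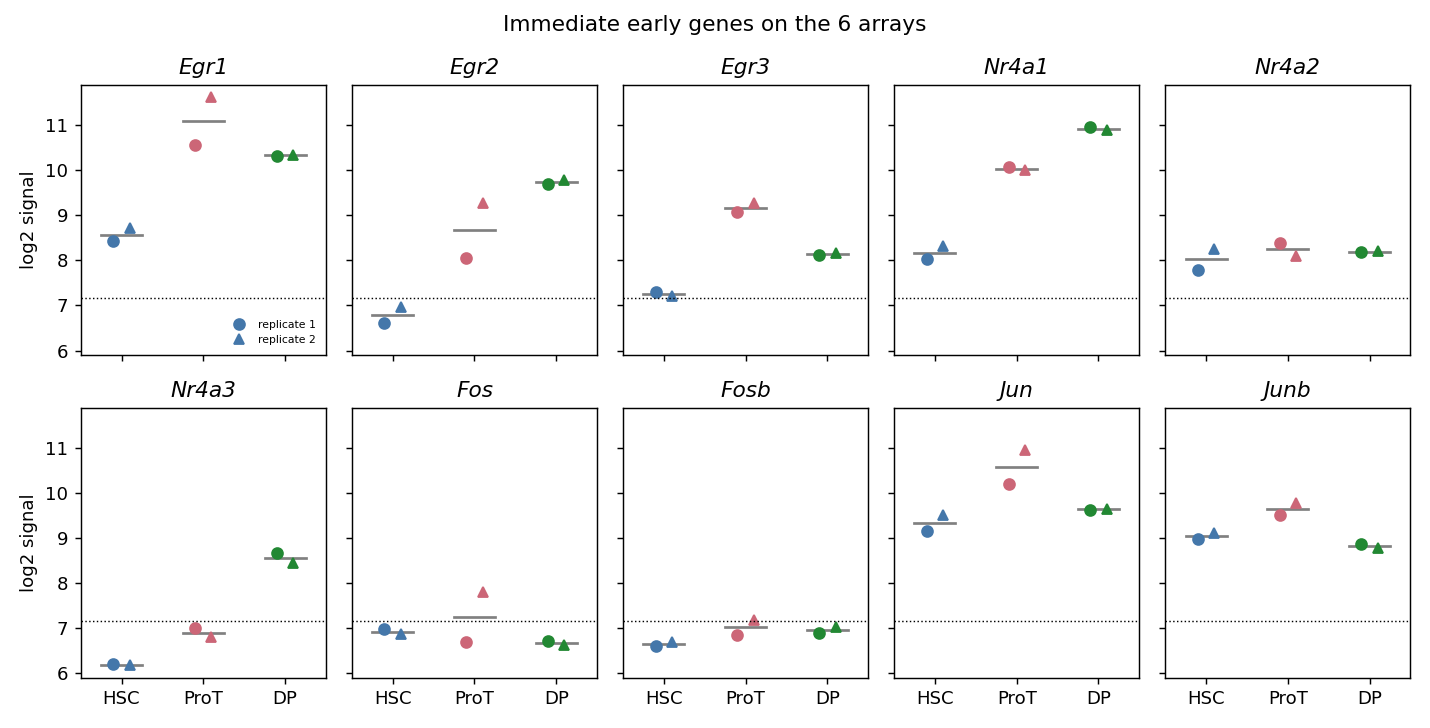
Log2 signal (vertical axis, shared) of the 10 genes in HSC, ProT and DP (horizontal axis), with a circle for replicate 1, a triangle for replicate 2, a grey bar for the mean and a dotted line at 7.17, the median of all gene values. Nr4a1 and Nr4a3 climb at both steps, Egr3, Jun and Junb are highest in ProT, and in ProT the replicates of Egr1, Egr2, Fos and Jun lie apart.

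Between ProT and HSC, 7 of the 10 genes rose and 0 fell: Egr1, Egr2, Egr3, Nr4a1, Nr4a3, Jun and Junb. Of all genes tested, 7.85% were called higher and 6.9% lower in this comparison, 14.7% in either direction. The median change of the 10 was 0.98, against -0.01 for all genes. Nr4a2, Fos and Fosb did not pass.

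The 3 EGR genes among the 10 all rose at this step. Egr4, a relative outside the 10, did not pass, at -0.01 ± 0.09 (limma adjusted p = 0.958). Egr1, a zinc finger factor that Erk signals switch on, had signals of 8.43 and 8.71 in HSC, 10.56 and 11.62 in ProT, and 10.31 and 10.33 in DP. All ProT and DP arrays were above the HSC arrays, and the ProT arrays were spread more widely than either other pair. The change in ProT against HSC was 2.52 ± 0.33, or 5.74-fold (adjusted p = 0.00501). Egr2, which supports thymocytes at the pre-T cell receptor checkpoint, had 6.61 and 6.97 in HSC, 8.06 and 9.28 in ProT, and 9.70 and 9.77 in DP. Its populations did not overlap and were ordered HSC, ProT, DP. In ProT it was at least 3.68-fold above HSC (1.88 ± 0.38, adjusted p = 0.0252). Egr3, which acts with Egr2 in thymocytes, had 7.30 and 7.20 in HSC, 9.07 and 9.26 in ProT, and 8.12 and 8.15 in DP. Its replicates lay close together, and ProT was the highest of the 3 populations. The Egr3 change in ProT against HSC was 1.92 ± 0.09, or 3.77-fold (adjusted p = 0.000109).

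The NR4A genes did not move alike. Nr4a1 had signals of 8.03 and 8.31 in HSC, 10.06 and 10.01 in ProT, and 10.95 and 10.88 in DP, a climb at each step with no overlap. It was 3.64-fold higher in ProT than in HSC (log2 interval 1.60 to 2.13, adjusted p = 0.000222). Nr4a3 (Nor1), a close relative that T cell receptor signals also induce, had 6.20 and 6.18 in HSC, 7.00 and 6.80 in ProT, and 8.66 and 8.44 in DP. Only its DP arrays were above the median of all gene values. In ProT it was at least 1.64-fold above HSC (0.72 ± 0.11, adjusted p = 0.00936). Nr4a2 (Nurr1), known for its part in dopamine neurons, had 7.79 and 8.25 in HSC, 8.38 and 8.10 in ProT, and 8.17 and 8.20 in DP. All 3 populations overlapped, and the interval of the ProT against HSC change ran from -0.21 to 0.64 (adjusted p = 0.535).

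Among the AP-1 genes the Jun side rose and the Fos side did not pass. Jun had signals of 9.14 and 9.50 in HSC, 10.20 and 10.95 in ProT, and 9.63 and 9.64 in DP. The ProT arrays were the highest, and they were also further apart than the other pairs. Jun was 2.38-fold higher in ProT than in HSC (1.25 ± 0.25, adjusted p = 0.0252). Junb, a Jun relative that often tempers AP-1 activity, had 8.99 and 9.11 in HSC, 9.52 and 9.77 in ProT, and 8.86 and 8.78 in DP. It was again highest in ProT, by 0.60 ± 0.11 over HSC (adjusted p = 0.017).

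Fos, a main partner of Jun in AP-1, had 6.98 and 6.87 in HSC, 6.68 and 7.79 in ProT, and 6.73 and 6.64 in DP. Only ProT replicate 2 was above the median of all gene values, and the other ProT array was below both HSC arrays. The ProT against HSC change of Fos was 0.31 ± 0.33 (interval -0.51 to 1.14, adjusted p = 0.67). Fosb had 6.60 and 6.69 in HSC, 6.86 and 7.18 in ProT, and 6.89 and 7.03 in DP, all but 1 below the median of all gene values. For Fosb the change in ProT was 0.37 ± 0.13 (interval 0.06 to 0.68), which did not pass after adjustment (adjusted p = 0.121).

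With the spread estimated from the ProT and HSC arrays alone, 4 of the 10 genes were called in ProT against HSC, and Egr2, Jun and Junb were lost (adjusted p = 0.0896, 0.0892 and 0.0604). Egr2 was also lost without HSC replicate 1 or 2 (adjusted p = 0.0675 and 0.0535), Jun without HSC replicate 1 (0.0667) and Junb without ProT replicate 2 (0.0518).

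**Figure D2:**
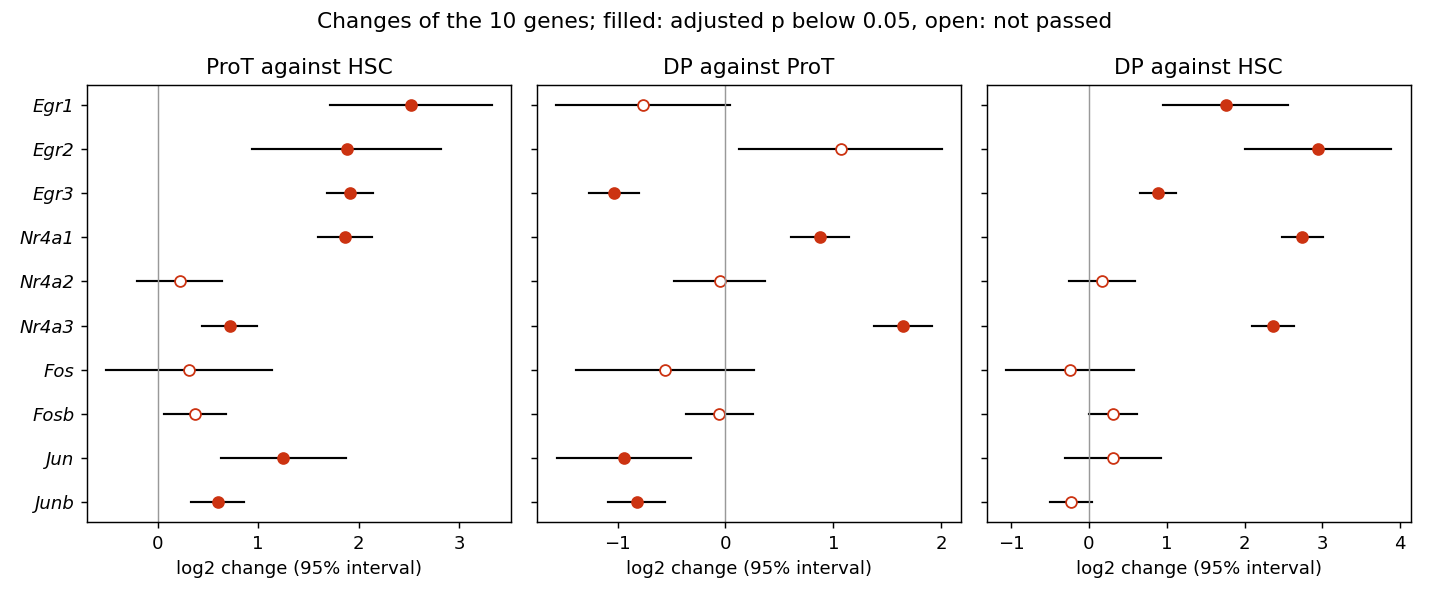
Log2 changes (horizontal axes) of the 10 genes in the 3 comparisons, as points with 95% intervals from limma, filled where the adjusted p is below 0.05 and open where it is not. In ProT against HSC 7 points are filled and lie right of 0. In DP against ProT Nr4a1 and Nr4a3 lie right of 0 and Egr3, Jun and Junb left of it.

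Between DP and ProT the 10 genes split. Nr4a1 and Nr4a3 rose and Egr3, Jun and Junb fell, against 14.5% of all genes called higher and 18.1% called lower, or 32.6% in either direction. Nr4a3 was at least 3.14-fold higher in DP than in ProT (1.65 ± 0.11, adjusted p = 0.000202). Nr4a1 was 1.84-fold higher (0.88 ± 0.11, adjusted p = 0.00197). Egr3 averaged 8.14 ± 0.03 in DP and 9.17 ± 0.14 in ProT (SD, n = 2 each), a change of -1.03 ± 0.09 (limma adjusted p = 0.000625). Jun averaged 9.63 in DP and 10.57 in ProT, and Junb 8.82 in DP and 9.64 in ProT, with changes of -0.94 ± 0.25 (adjusted p = 0.035) and -0.82 ± 0.11 (adjusted p = 0.00245). The Jun call was lost after quantile normalization or cyclic loess (adjusted p = 0.0565 and 0.0583), and without ProT replicate 2 (0.0644), DP replicate 1 (0.16) or DP replicate 2 (0.171).

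Egr1 and Egr2 did not pass at this step, at -0.76 ± 0.33 (adjusted p = 0.14) and 1.07 ± 0.38 (adjusted p = 0.0851). Both turn on the ProT arrays: without ProT replicate 1 the Egr1 change was -1.29 and was called (adjusted p = 0.00379), and without ProT replicate 2 the Egr2 change was 1.68 and was called (adjusted p = 0.00247). Egr2 was called as well with the replicate number as a block (adjusted p = 0.0403) and among genes that pass a filter on dim signal (0.0461). The DP against ProT intervals of the remaining genes were -0.48 to 0.37 for Nr4a2, -1.38 to 0.27 for Fos and -0.37 to 0.25 for Fosb. For Nr4a2 and Fosb the sign of this change turned positive after quantile normalization and median centring.

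Over the whole path from HSC to DP, 5 of the 10 genes were higher in DP and 0 were lower, against 16.0% and 18.8% of all genes, or 34.9% in either direction. Egr2 was at least 7.72-fold higher in DP than in HSC (2.95 ± 0.38), Nr4a1 6.70-fold (2.74 ± 0.11) and Nr4a3 at least 5.15-fold (2.36 ± 0.11). Egr1 kept a difference of 1.76 ± 0.33 (adjusted p = 0.00829), which was not called without DP replicate 1 or 2 (adjusted p = 0.0659 and 0.0705), and Egr3 of 0.88 ± 0.09. Jun and Junb did not pass in DP against HSC, with intervals of -0.31 to 0.93 and -0.49 to 0.04. The 3 comparisons share arrays, so they are not independent of each other.

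By the calls at both steps, Nr4a1 and Nr4a3 were higher in ProT and higher again in DP, a course that 1.68% of all genes took. Egr3, Jun and Junb were higher in ProT and lower in DP, as were 4.17% of all genes. Egr1 and Egr2 rose in ProT with no call at the later step, as did 2.01%. Nr4a2, Fos and Fosb were called at neither step, as were 62.2%. Set against the midpoint of HSC and DP, the ProT signals of Egr1, Egr3, Nr4a1, Jun and Junb were called above it and that of Nr4a3 below it, against 11.8% and 9.17% of all genes, or 21.0% in either direction. The ProT signal of Nr4a1 lay above the midpoint of HSC and DP by 0.49 ± 0.09 (adjusted p = 0.0164). That of Nr4a3 lay below it, at -0.47 ± 0.10 (adjusted p = 0.0205), but its HSC and ProT means were below the median of all gene values, so its steps cannot be sized against each other. Several of these calls were lost in fits that leave out 1 array. That of Nr4a1 had adjusted p = 0.0985 and 0.0576 without ProT replicate 1 or 2 and 0.0677 and 0.079 without DP replicate 1 or 2. That of Nr4a3 had 0.0992 without ProT replicate 2 and 0.0694 without DP replicate 1. Without DP replicate 1 or 2, those of Egr1 had 0.0654 and 0.066 and those of Jun 0.0884 and 0.0886.

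The ProT arrays stood apart from each other at several of these genes. In ProT replicate 2, Egr2 was 2.34-fold, Fos 2.16-fold and Egr1 2.08-fold above replicate 1, so 3 of the 10 genes were at least 2-fold higher there, against 0.607% of all genes, and 0.722% were 2-fold apart in either direction. Jun was 1.68-fold higher in replicate 2. Fosb, Junb and Egr3 were higher by 0.32, 0.25 and 0.19 on the log2 scale, while Nr4a1, Nr4a3 and Nr4a2 differed by -0.06, -0.20 and -0.28. Between the DP arrays 0 of all 19938 genes were 2-fold apart. Between the HSC arrays 0 of the 10 genes were 2-fold apart, against 1.02% of all genes (0.707% higher in replicate 2). Fos was called in ProT against HSC when ProT replicate 1 was left out (0.87, adjusted p = 0.0103) and was at -0.24 when replicate 2 was left out. In DP against ProT it was called without ProT replicate 1 too (-1.11, adjusted p = 0.00254). No test was made of this gap, since it rests on 1 array against another.

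**Figure D3:**
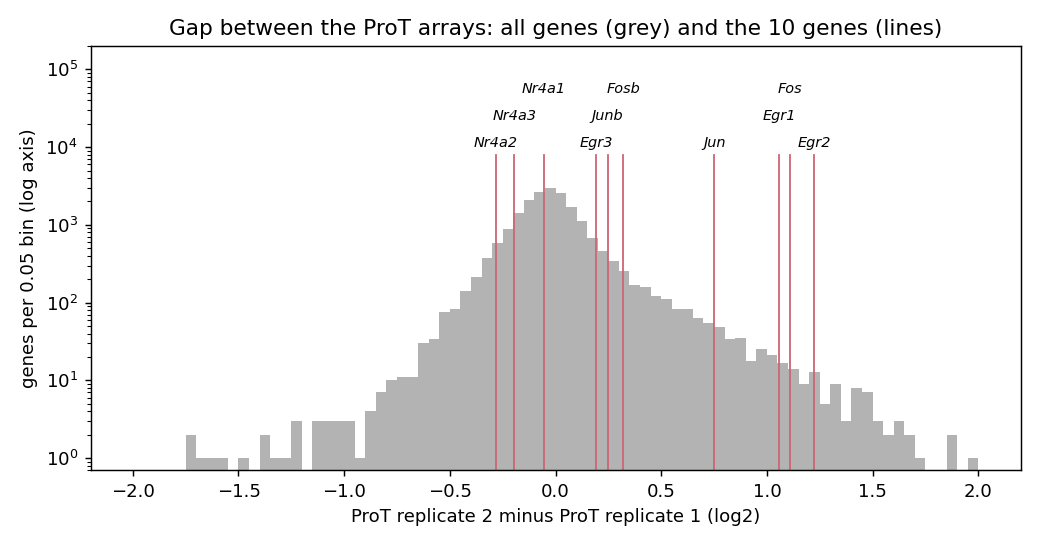
Difference between ProT replicate 2 and ProT replicate 1 (horizontal axis, log2) for all 19938 genes as grey bars (genes per bin of 0.05, log axis) and for the 10 genes as lines. Egr1, Egr2 and Fos lie beyond 1 in the right tail, Jun at 0.75, and the other 6 between -0.28 and 0.32.

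Relatives and dimer partners of these factors were also listed. Of 17 measured genes, 4 rose and 0 fell in ProT against HSC, against 7.85% and 6.9% of all genes. In DP against ProT 0 rose and 5 fell, against 14.5% and 18.1% of all genes. Jund, the Jun relative made steadily in many cells, rose by 1.43 ± 0.14 in ProT, followed by Batf3 (at least 1.80-fold) and Maff (at least 1.52-fold). In DP the AP-1 partners Jdp2 (-1.28 ± 0.09), Fosl2 (-1.20 ± 0.25) and Batf (-1.11 ± 0.11) fell. Atf3 and Fosl1 did not pass in ProT, at -0.97 ± 0.34 and -0.91 ± 0.30. These lists, like the 10 genes, are described by their counts, and the median of all genes was -0.01 in ProT against HSC and 0.02 in DP against ProT.

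Of 16 measured transcription factors that act upstream, 3 rose and 2 fell in ProT against HSC, against 7.85% and 6.9% of all genes. In DP against ProT 6 rose and 2 fell, against 14.5% and 18.1% of all genes. The calcium-dependent factor genes Nfatc2 (1.37 ± 0.09) and Nfatc1 (0.86 ± 0.10) and the serum response partner Elk4 (0.60 ± 0.10) rose in ProT, while Srf itself fell (-0.45 ± 0.09). In DP against ProT, Mef2a rose by 2.35 ± 0.22, Creb1 by 1.29 ± 0.19, Nfatc3 by 1.12 ± 0.10 and Mef2d by 1.06 ± 0.15. MEF2 and NFAT proteins are known to act on Nr4a1 when calcium rises.

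Of 12 measured Ras activators and kinases, 1 rose and 2 fell in ProT, against 7.85% and 6.9% of all genes. The riser was Rasgrp1, which links the T cell receptor to Ras, at least 34.0-fold above HSC (5.09 ± 0.31), and it rose again in DP by 1.15 ± 0.31. Braf, a kinase upstream of Erk, was at -0.83 ± 0.17 in ProT and 0.67 ± 0.17 in DP against ProT, both called. The 6 other genes of this list are not analysed here.

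Of 19 feedback inhibitors, 6 rose and 3 fell in ProT (median 0.57), against 7.85% and 6.9% of all genes. In DP against ProT 4 rose and 5 fell (median 0.02), against 14.5% and 18.1% of all genes. Dusp5, a phosphatase for nuclear Erk, rose 7.11-fold in ProT and fell in DP (-1.38 ± 0.17), whereas Dusp10, a phosphatase for p38 and Jnk, rose at least 3.37-fold in ProT and a further 5.39-fold in DP. Rgs1, an inhibitor of G protein signals, rose at least 8.08-fold in ProT and fell at least 11.4-fold in DP. Socs3 fell in ProT (-1.21 ± 0.07).

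Of 25 other immediate early genes, 10 rose and 0 fell in ProT (median 0.42), against 7.85% and 6.9% of all genes. In DP against ProT 7 rose and 11 fell (median -0.36), against 14.5% and 18.1% of all genes. Gadd45g, a stress and differentiation gene, rose 10.8-fold in ProT and fell at least 12.9-fold in DP. Ier2 rose by 1.60 ± 0.32 in ProT and Ier5 by 1.21 ± 0.16. Btg2, an inhibitor of proliferation, rose in ProT (1.87 ± 0.18). Phlda1 rose at least 7.87-fold in DP, while Nfil3 fell at least 9.15-fold and Ier3 at least 7.31-fold there. Klf6 did not pass in ProT, at 1.23 ± 0.36 (adjusted p = 0.0786).

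Genes that report T cell receptor signals, or that EGR and NR4A proteins act on, were called in 9 of 16 cases as higher and in 0 as lower in ProT against HSC. Of all genes, 7.85% were called higher and 6.9% lower in that comparison. In DP against ProT 6 were higher and 3 lower, against 14.5% and 18.1% of all genes. Tnfrsf9 (4-1BB), an activation receptor, rose at least 61.9-fold in ProT and changed by -3.83 ± 0.10 in DP. Tox rose at least 13.4-fold and Id2 3.18-fold in ProT. Cd5, whose level follows T cell receptor signal strength, rose 16.1-fold in DP over ProT. Cd69, an early activation marker, passed at neither step, at 0.77 ± 0.36 in ProT and -0.55 ± 0.36 in DP, and the sign of the DP value turned (0.06) without ProT replicate 2.

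**Figure D4:**
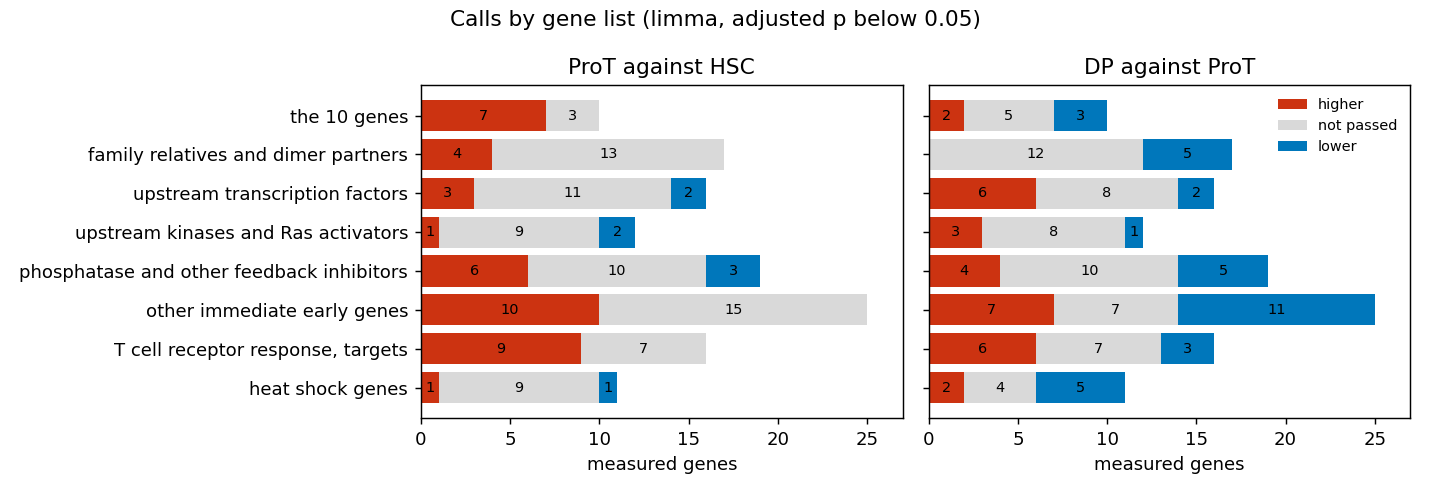
Number of measured genes (horizontal axes) called higher (red), not passed (grey) and called lower (blue) in each gene list, for ProT against HSC and DP against ProT. The 10 genes have 7 higher and 0 lower in ProT against HSC, and 2 higher and 3 lower in DP against ProT.

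The genes whose 6 centred values lay closest to a given gene differed for each of the 10. The distance is Euclidean on the log2 scale over 6 arrays of 3 populations, and a small distance is common for genes that barely move. Genes with a symbol of Gm or LOC and digits, or ending in Rik, were passed over. Closest to Nr4a1 were Rcbtb2 (0.286), Galnt12 (0.309) and Nlrc3 (0.357), and to Nr4a3 Fam78a (0.203), Tmc8 (0.219) and Tubb2a (0.278). Closest to Egr3 were Tnfsf8 (0.184), Fam234b (0.216) and Mboat2 (0.247), and to Egr2 Ms4a4b (0.506), Inpp4b (0.650) and Nabp1 (0.685). Jun was closest to Slc41a2 (0.215) and Klf6 (0.319), and Egr1 to Hectd2 (0.451). None of the 10 genes was among the 3 closest of another.

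The labels were checked against markers. Cd3e was at least 66.6-fold higher in ProT than in HSC, and Cd4 at least 116-fold higher in DP than in ProT. The summed linear signal of 10 T lineage markers was 604 to 623 in HSC, 17760 to 19041 in ProT and 72168 to 72507 in DP. Of these, 5 were called higher and 0 lower in ProT against HSC, and 9 and 0 in DP against ProT. For this list and those below, the shares of all genes called higher and lower were 7.85% and 6.9% in ProT against HSC. They were 14.5% and 18.1% in DP against ProT, and 16.0% and 18.8% in DP against HSC. A sum of linear signals mostly follows its brightest genes. Markers of other cells moved as well. The 8 mast cell markers summed to 2775 to 3590 in HSC, 18688 to 19101 in ProT and 633 to 696 in DP, with 6 called higher and 1 lower in ProT against HSC and 0 higher and 7 lower in DP against ProT. The 8 NK markers summed to 6905 to 7189, 29176 to 29493 and 2711 to 2852 in the same order, with Eomes dim on all arrays. Of these, 6 were higher and 0 lower in ProT against HSC, and 0 higher and 6 lower in DP against ProT. Although the sum was lower in DP than in HSC, 6 NK markers were called higher and 1 lower in DP against HSC. The mast cell and NK sums were highest in ProT, as Egr3, Jun and Junb were. The 10 macrophage and monocyte markers summed to 10360 to 13799 in HSC, 4460 to 4830 in ProT and 3308 to 3563 in DP, with Mrc1 and Mertk dim on all arrays. Of the 10, 1 was called higher and 3 lower in ProT against HSC, and 5 higher and 2 lower in DP against ProT. The 10 stroma markers summed to 1998 to 2370, 3564 to 3659 and 3661 to 3722, with Krt5, Foxn1 and Pdgfra dim on all arrays. Only 1 of them was called higher and 0 lower in ProT against HSC, where the sum rose. In DP against ProT, where Nr4a1 and Nr4a3 rose, 6 stroma markers were higher and 1 lower. The 6 progenitor markers summed to 12425 to 15498, 14439 to 14683 and 1564 to 1706. Among them, 1 was called higher and 1 lower in ProT against HSC, and 1 higher and 5 lower in DP against ProT. The 5 B cell markers, of which Cd79a, Pax5, Ms4a1 and Ebf1 were dim on all arrays, summed to 2009 to 2151, 1381 to 1657 and 2219 to 2277, with 5 of 5 called higher in DP against ProT. The part of these cells in the results was not tested.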

How the data were processed

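Total RNA of 6 samples was labelled with biotin and hybridized to Affymetrix arrays, per the labels. For every array the authors deposited log2 signals of 35556 probe sets, made with RMA and Partek per the submitters' processing notes. No version or setting was given. GEO's platform table linked 21789 probe sets to 1 gene, covering 19938 genes, and the probe set with the highest mean stood for a gene. All 6 arrays were fitted with a mean per population in limma 3.58.1 (R 4.3.3) with eBayes (3 residual and 2.83 prior degrees of freedom), adjusted by Benjamini-Hochberg over all genes of a comparison, and the fit was tested on simulated data. The number of arrays limits the precision. The 10 genes, the lists, the motifs and the naming rule (per list, for ProT against HSC and DP against ProT, up to 4 called and 2 not called genes by size of change, and the 3 genes nearest each member) were chosen with earlier results of these data known. Not every gene the rule allows is named. Dusp1, Nfkbia, Plk2, Irf4, Egr4, Zfp36l1, Pdcd1 and the genes with the largest ProT replicate gaps fall outside the rule and were chosen with their values seen. Cd3e and Cd4 check the labels. Promoters came from RefSeq (GRCm38.p6). Alternatives were a replicate block, other normalizations, a filter on dim genes, other probe set rules, another prior, fewer arrays and a stricter threshold.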

Additional observations from a re-analysis of the deposited data

How the results depend on the processing

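Counts of called members stayed within 1.5 times of those reported in 115 cases and moved further in 11. With only the populations compared, or at an adjusted p below 0.01, 4 of the 10 genes were called higher in ProT against HSC rather than 7. At that threshold 2 lay above and 0 below the midpoint of HSC and DP, rather than 5 and 1. Leaving out 1 array, members called higher and lower ranged from 4 to 8 and 0 to 0 in ProT against HSC, from 2 to 3 and 2 to 5 in DP against ProT, from 4 to 5 and 0 to 0 in DP against HSC, and from 2 to 6 and 0 to 1 around the midpoint. The 5 members called lower in DP against ProT came without ProT replicate 1. The fits without a DP array gave 4 higher in ProT against HSC and 2 above the midpoint. Where the last array of a group stands alone, it is assumed to vary like the other groups. The labels state no pairing of the arrays. Deviations of same-numbered arrays correlated at 0.06, -0.02 and -0.04, which cannot show whether the arrays were paired. With the replicate block, 7 members were higher in ProT against HSC, and 3 higher and 3 lower in DP against ProT. In DP against HSC 5 were higher, and around the midpoint 5 were above and 1 below.

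Only values that had not passed turned their sign. In DP against ProT, Nr4a2 became 0.17 after quantile normalization and 0.063 after median centring, and ranged from -0.19 (without ProT replicate 2) to 0.087 (without ProT replicate 1). Fosb became 0.014 and 0.058 in the same 2 settings, and ranged from -0.22 to 0.10, with 0.012 without DP replicate 1. Hspa8 became 0.0070 after median centring and 0.024 after cyclic loess, and Cd69 ranged from -1.16 to 0.060. Leaving out 1 array, Nr4a2 ranged from -0.012 to 0.45 in ProT against HSC, from -0.066 to 0.39 in DP against HSC and from -0.0050 to 0.28 at the midpoint. Fos ranged from -0.24 to 0.87 in ProT against HSC and from -0.12 to 0.99 at the midpoint, and Egr2 at the midpoint from -0.21 to 1.02. Over all genes, the counts of calls ranged from 891 to 1988 higher and 644 to 1994 lower in ProT against HSC, and from 1467 to 4522 and 2047 to 4126 in DP against ProT. The corresponding ranges were 1940 to 3856 and 2361 to 3862 in DP against HSC, and 1251 to 2877 and 750 to 2996 around the midpoint. Of the other named genes' values, 1144 kept their side of the threshold, 89 lost a call, 59 gained one and 3 turned their sign. The causes of these shifts were not tested.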

Other observations

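Heat shock genes also respond to the handling of cells. Of 11 measured, 1 rose and 1 fell in ProT against HSC, Dnajb1 at 0.63 ± 0.08 and Hsph1 at -0.40 ± 0.10, against 7.85% and 6.9% of all genes, a share near that background. In DP against ProT 2 rose and 5 fell, against 14.5% and 18.1% of all genes. These included the cochaperone genes Dnajb4 (1.44 ± 0.20) and Bag3 (-1.27 ± 0.11) and the mitochondrial chaperone genes Hspd1 (-1.26 ± 0.12) and Hspe1 (-0.86 ± 0.10). Hspa8, the constitutive chaperone, did not pass at -0.11 ± 0.08. Hspa1a, the inducible chaperone, did not pass in ProT against HSC at -0.45 ± 0.15.

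Some of the other response genes had a gap between the ProT arrays like that of Egr1, Egr2 and Fos. At least 2-fold higher in replicate 2 were 1 of 25 other immediate early genes, 2 of 19 feedback inhibitors and 1 of 16 T cell receptor response genes, against 0.607% of all genes. By any amount, 19 of the 25, 14 of the 19 and 6 of the 16 were higher in replicate 2. Among all genes, 58.3% had a gap below that of Nfil3 (-0.0002), so most genes were lower, not higher, in replicate 2. The median gaps of these lists were 0.06, 0.03 and -0.12 on the log2 scale, against -0.03 for all genes. In ProT replicate 2, these genes stood above replicate 1: Cd69 was 2.33-fold, Klf6 2.24-fold, Dusp1 2.22-fold and Rgs1 2.19-fold higher. Zfp36 was 1.94-fold higher. Dusp1, a phosphatase induced with Fos, did not pass in ProT against HSC, at 0.58 ± 0.35. Nfkbia, Gadd45b, Plk2 and Irf4 went the other way, at -0.50, -0.47, -0.47 and -0.46 on the log2 scale. Large gaps among all genes included those of Zfp518a (1.98), Cenpe (1.89) and Depdc1a (1.89), of which Cenpe encodes a mitotic motor. Some genes of these lists were also at least 2-fold apart between the HSC arrays, as were 1.02% of all genes. By HSC replicate 2 minus replicate 1, Rgs1 was at -1.23, Dusp2 at -1.17, Dusp6 at -1.07, Pdcd1 at -1.21 and Zfp36l1 at 1.08. What sets the replicate arrays apart was not tested.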
